A study of Homo sapiens with 2 samples.

Results

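The genes described here are 36 genes of cholesterol and fatty acid synthesis, with the proteins that sense, carry and export sterols. They were chosen by symbol from a fixed list, with earlier results of these data known. They were followed in A549 cells, a human lung carcinoma line, on 1 Affymetrix array of the culture labelled control and 1 of a culture that received TGF-β at 1 ng/ml and was taken after 12 h. Both cultures are labelled as this 1 line, with no other agent and no genetic change named, so the values speak of A549 alone. Of the 36 genes, 32 had at least 1 probe set under their own symbol, among 19775 genes named on the array. FADS1, a fatty acid desaturase, and CYP51A1, a sterol demethylase, had only probe sets that carried a second symbol and are not reported, and FDFT1, the squalene synthase, and ACSL3, an acyl-CoA ligase, were not listed in the annotation used. Of the 32, 31 were bright enough to be kept, which meant that the mean of the 2 signals of a probe set reached 48.7, the median over probe sets. These 31 stand among 12375 genes kept in the same way. The gene left out was MVD, a decarboxylase of the mevalonate pathway, with signals of 12.1 in the control and 21.6 after TGF-β, both at background.

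Cells make cholesterol from acetyl-CoA by way of mevalonate, farnesyl pyrophosphate and squalene, and they make fatty acids from acetyl-CoA by way of malonyl-CoA. Most enzymes of both routes are known targets of the SREBPs, transcription factors held in the membrane of the ER and released by the proteases S1P and S2P, the same proteases that cleave CREB3L1, whose activation by TGF-β the study examined. SCAP carries the SREBPs to the Golgi when sterols are low, and INSIG proteins retain SCAP in the ER when sterols are high. Export of cholesterol through ABCA1 and ABCG1 is known to be driven instead by the LXR receptors, which respond to oxidised sterols. In the lung, epithelial cells use fatty acids and cholesterol for membranes and, in alveolar cells, for surfactant.

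Values are MAS5 signals, intensities on a linear scale that the authors deposited for each probe set, and a gene is represented by its brightest kept probe set unless others are given. With 1 array per condition there was no replicate check and no test, the number of arrays limits the precision, and a 2-fold difference is a rule of size. Where a spread is given, it is the spread of log2 ratios over probe sets of similar brightness on these arrays, not a spread between cultures. Background was read from 27 probe sets for Bacillus subtilis transcripts, of which the brightest gave 45.8 (control array) and 56.6 (TGF-β array). The arrays were alike in scale, with median signals of 51.0 and 49.3. Of 5 epithelial markers, all read above background on both arrays, between 1492 and 33810 without TGF-β and between 846 and 38248 with it. CDH1, the E-cadherin gene, was 2.31-fold lower with TGF-β, KRT19 was 1.51-fold and EPCAM 1.35-fold lower, and KRT8 and KRT18 were higher by less than 1.5-fold; the part of these differences in the lipid gene values was not tested. Markers of other cell types were at background or dimly above it. The highest signal was 82.5 among 4 fibroblast markers, 74.8 among 2 measured immune markers and 65.4 among 3 endothelial markers. The 82.5 was THY1 on the control array, which read 21.8, at background, with TGF-β.

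After 12 h with TGF-β, the sterol exporters ABCA1 and ABCG1 were at least 2-fold higher by their brightest probe sets. The 14 measured enzymes that make cholesterol differed by less than 1.5-fold in the same way, as did 10118 of all 12375 genes. Dimmer probe sets of DHCR7 (1.55-fold lower), IDI1 (1.92-fold lower) and EBP (1.85-fold higher) passed 1.5-fold. Of the 31 measured genes, 2 were at least 2-fold higher, where 3.94% of all 12375 genes were, and 0 were at least 2-fold lower, where 2.96% of all genes were. At 1.5-fold, 3 were higher, adding STARD4, a sterol carrier, where 9.16% of all genes were, and 1 was lower, ELOVL6, a fatty acid elongase, where 9.08% of all genes were. Among 7815 genes with a mean signal of at least 349, the 75 percentile over probe sets, where ratios scatter less, 28 of the lipid genes remained. Of these 28, 0 were at least 2-fold higher, where 2.52% of such genes were, and 0 at least 2-fold lower, where 0.806% were, while 1 (STARD4) was at least 1.5-fold higher, where 6.18% were, and 1 (ELOVL6) at least 1.5-fold lower, where 3.90% were. The median log2 ratio of TGF-β over control was -0.01 over the 31 genes and -0.03 over all genes. By role, the median log2 ratio was -0.12 for the 3 sterol sensors, -0.16 for the 6 measured enzymes of the mevalonate pathway, 0.00 for the 8 measured enzymes from squalene to cholesterol, 0.76 for the 5 sterol transport proteins, 0.09 for the 7 measured enzymes of fatty acid synthesis and -0.04 for ACSL1 and LPIN1. The differences between roles could not be tested with 1 array per condition.

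**Figure D1:**
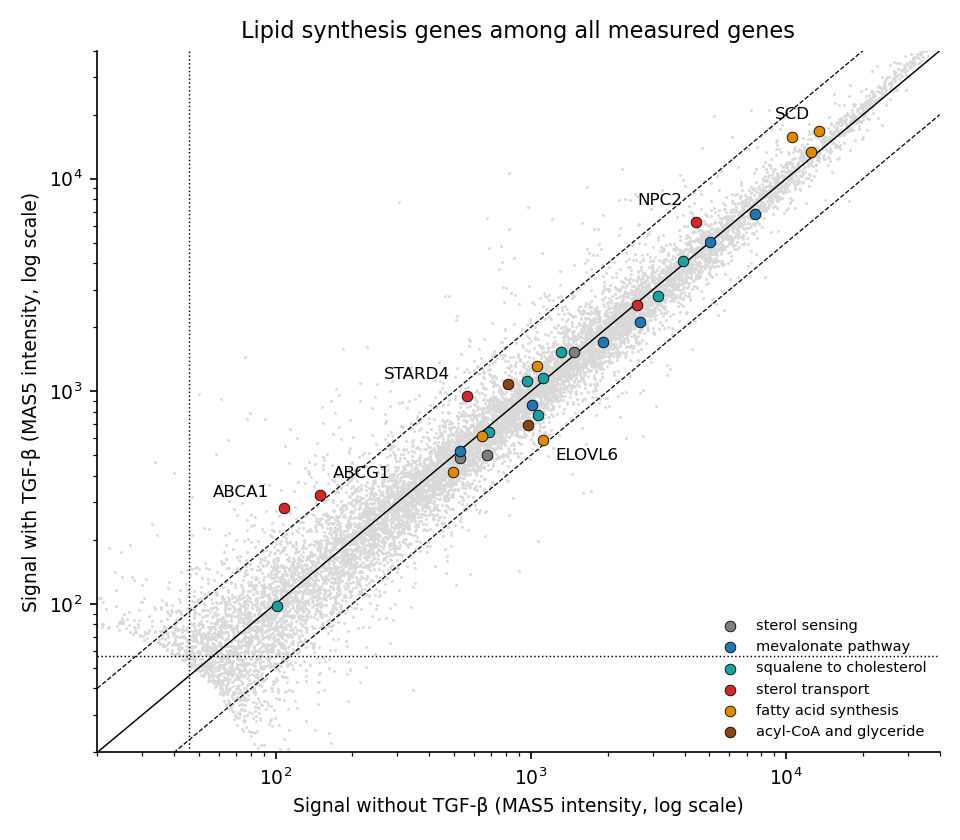
MAS5 intensities of 12375 genes, control on the x axis and TGF-β on the y axis, both log scaled, with 31 lipid genes coloured by role. Each point is 1 gene by its brightest kept probe set, the solid line is equality, dashed lines are 2-fold, and dotted lines mark background at 45.8 and 56.6. ABCA1 and ABCG1 lie above the upper dashed line, ELOVL6 lies just inside the lower one, and the cholesterol enzymes lie along the solid line.

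The promoters of 5 of these genes are shown because they cover the highest ratio (ABCA1), the lowest ratio (ELOVL6), the sterol carrier that was higher (STARD4), and 2 enzymes of cholesterol synthesis, the one with the lowest ratio (DHCR7) and the enzyme that makes HMG-CoA (HMGCS1). The sequences are from RefSeq, build GRCh38.p14, and each runs from 250 bases before to 50 bases after a transcript start, 5′ to 3′ on the strand of the gene. Capitals mark every CCAAT (the box bound by NF-Y) and every GGGCGG (the box bound by Sp1), on either strand. ABCA1 is at chr9:104928106-104928405, minus strand, STARD4 at chr5:111512486-111512785, minus strand, ELOVL6 at chr4:110198566-110198865, minus strand, DHCR7 at chr11:71448344-71448643, minus strand, and HMGCS1 at chr5:43313363-43313662, minus strand. DHCR7 and HMGCS1 each have a second start in the table, which is not shown.
ABCA1: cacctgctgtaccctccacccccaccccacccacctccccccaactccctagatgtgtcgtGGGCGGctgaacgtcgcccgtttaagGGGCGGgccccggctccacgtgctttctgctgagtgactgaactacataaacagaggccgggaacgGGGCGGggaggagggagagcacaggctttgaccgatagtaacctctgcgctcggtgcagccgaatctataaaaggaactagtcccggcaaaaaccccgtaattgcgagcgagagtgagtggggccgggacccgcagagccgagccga
STARD4: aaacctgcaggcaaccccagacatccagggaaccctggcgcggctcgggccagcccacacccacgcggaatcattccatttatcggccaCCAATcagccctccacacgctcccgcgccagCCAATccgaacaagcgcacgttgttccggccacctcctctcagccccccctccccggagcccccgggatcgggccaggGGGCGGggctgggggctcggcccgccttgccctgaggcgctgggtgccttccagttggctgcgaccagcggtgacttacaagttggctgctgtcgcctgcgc
ELOVL6: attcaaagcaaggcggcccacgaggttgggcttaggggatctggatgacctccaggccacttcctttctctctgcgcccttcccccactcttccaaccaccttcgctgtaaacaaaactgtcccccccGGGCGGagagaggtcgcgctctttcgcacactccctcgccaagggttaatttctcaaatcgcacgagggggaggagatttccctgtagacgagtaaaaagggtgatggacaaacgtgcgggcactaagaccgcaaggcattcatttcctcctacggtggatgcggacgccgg
DHCR7: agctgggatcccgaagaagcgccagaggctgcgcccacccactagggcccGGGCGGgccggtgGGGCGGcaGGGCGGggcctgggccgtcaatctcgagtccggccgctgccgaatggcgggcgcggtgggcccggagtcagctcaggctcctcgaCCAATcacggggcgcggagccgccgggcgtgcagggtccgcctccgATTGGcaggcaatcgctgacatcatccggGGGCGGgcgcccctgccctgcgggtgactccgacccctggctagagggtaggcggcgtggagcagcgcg
HMGCS1: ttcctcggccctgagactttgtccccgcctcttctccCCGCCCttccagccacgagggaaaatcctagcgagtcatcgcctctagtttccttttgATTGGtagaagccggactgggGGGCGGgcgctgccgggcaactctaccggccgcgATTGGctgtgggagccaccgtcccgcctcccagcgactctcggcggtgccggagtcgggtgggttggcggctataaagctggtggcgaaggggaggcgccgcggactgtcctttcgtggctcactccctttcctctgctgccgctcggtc

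The ABCA1 and ELOVL6 windows held no CCAAT, while those of STARD4, DHCR7 and HMGCS1 held 2 each. GGGCGG occurred 3 times for ABCA1, 4 times for DHCR7, 2 times for HMGCS1 and 1 time each for STARD4 and ELOVL6. These counts are for the starts shown. The other DHCR7 start held neither CCAAT nor GGGCGG, and the other HMGCS1 start held GGGCGG but no CCAAT. Of the 36 genes, 31 had a promoter in the table, with 48 starts in all. CCAAT was present in at least 1 promoter of 22 of these 31 genes (71.0%), of 12 of 14 cholesterol synthesis genes (85.7%), and of 42.1% of 15843 protein-coding genes with a promoter in the table. GGGCGG was present in at least 1 promoter of 29 of the 31 genes (93.5%) and of 64.3% of the protein-coding genes. By start, CCAAT was present in 54.2% of the 48 promoters, in 34.7% of 22199 protein-coding promoters and in 34.6% of all 35116, and GGGCGG in 81.2%, 56.3% and 45.0%. A form of the sterol regulatory element, TCACNCCAC, was present on either strand in 1 of the 48 promoters, a start of ACSL1, and in 1.13% of all promoters. A match is a run of letters and not a bound site, and a window without one lacks only these letters.

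The exporters had the highest ratios of the 31 genes. ABCA1, which loads cholesterol onto lipid-poor apolipoprotein, read 108 without TGF-β and 283 with it by its brightest probe set, a 2.62-fold rise with a log2 ratio of 1.39, where the spread at this brightness was 0.45. A second ABCA1 probe set read 82.2 and 212, a log2 ratio of 1.36. Both probe sets thus gave nearly the same ratio, and the remaining 2 were at background on both arrays. ABCA1 had the rise ranked 260 among 12375 genes.
ABCG1, which passes cholesterol to mature HDL particles, read 149 and 327, a 2.19-fold rise with a log2 ratio of 1.13 and a spread of 0.40. Another ABCG1 probe set read 11.3 without TGF-β, at background, and 102 with it, a rise of at least 2.24-fold against the background level. The other 2 ABCG1 probe sets were at background on both arrays. Neither gene reached a mean signal of 349, so both rises lie in the dimmer part of the measured range. With 50 added to every signal the log2 ratio was 1.08 for ABCA1 and 0.92 for ABCG1, which takes ABCG1 under 2-fold.

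The other transport proteins differed by less than 2-fold. STARD4, which moves sterols through the cytosol between membranes, read 563 without TGF-β and 955 with it by its single probe set, a 1.70-fold difference with a log2 ratio of 0.76 and a spread of 0.31. NPC2, which hands cholesterol to NPC1 inside lysosomes, read 4420 and 6251, a log2 ratio of 0.50 with a spread of 0.20. NPC1, the membrane protein that lets this cholesterol out, read 2610 and 2540, a log2 ratio of -0.04. Its next probe set read 103 and 63.3, so the dim and the bright probe set of NPC1 differed in size. In this group 4 of 5 genes were above 0 and 1, NPC1, was below, while 54.6% of all genes were below 0.

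**Figure D2:**
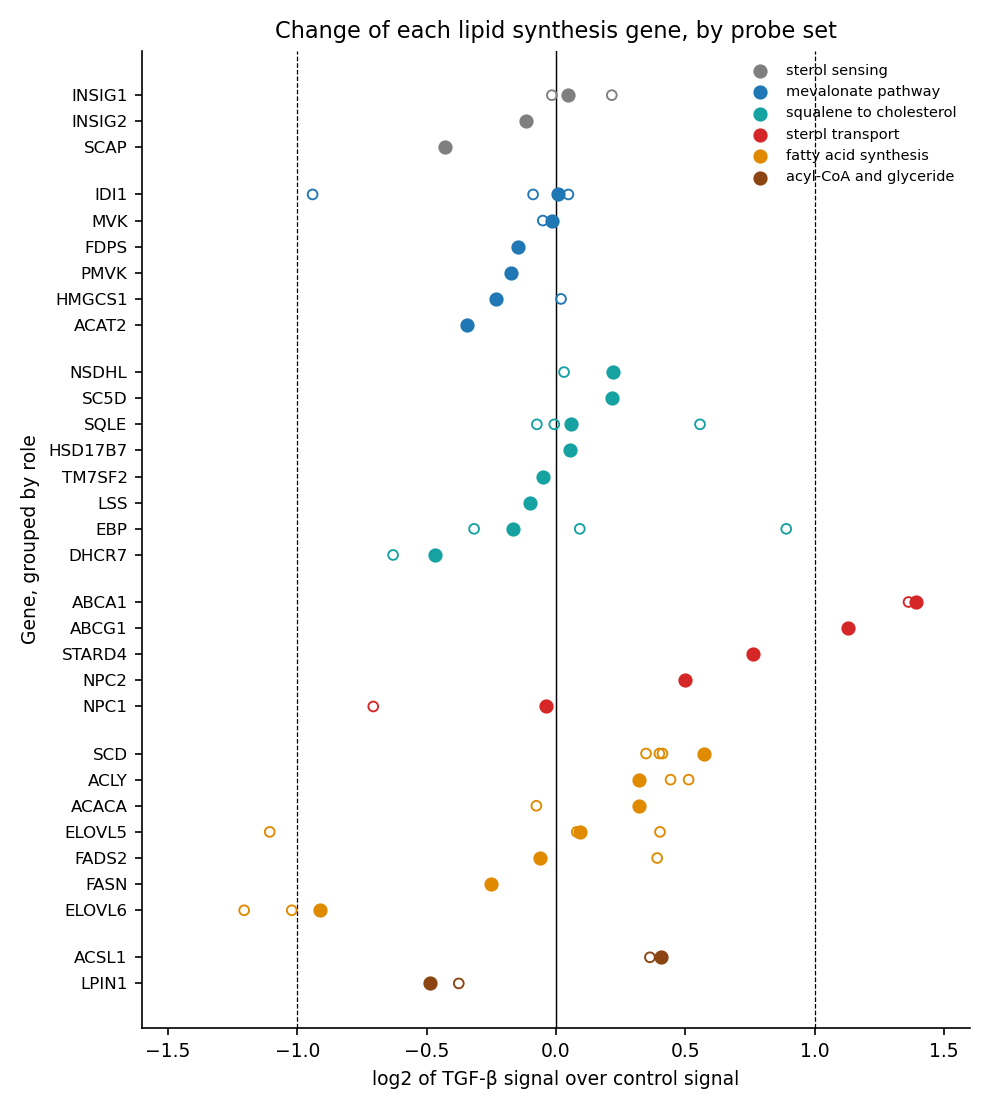
Log2 ratio of TGF-β over control signal (x axis) for each of 31 lipid genes (y axis), grouped by role. Filled points are the brightest probe set of a gene, open points are its other probe sets above background on both arrays, and dashed lines mark 2-fold. The sterol transport genes run from -0.04 to 1.39, the mevalonate enzymes by brightest probe set from -0.35 to 0.01, and the 3 ELOVL6 probe sets from -1.21 to -0.91.

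The 3 sterol sensors were within 1.5-fold. SCAP read 676 without TGF-β and 502 with it, a log2 ratio of -0.43 with a spread of 0.32, by a single probe set. INSIG1, itself a known SREBP target, read 1475 and 1524, a log2 ratio of 0.05, and its other probe sets gave 0.22 and -0.02. SREBP activity was not measured. INSIG2, the second retention protein, read 529 and 488, a log2 ratio of -0.12.

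Along the mevalonate pathway, 5 of 6 measured genes were below 0, where 54.6% of all genes were. All 6 were within 1.5-fold by their brightest probe sets, as were 10118 of all 12375 genes. The lowest was ACAT2, the thiolase that joins acetyl-CoA units, with 2683 without TGF-β and 2113 with it, a log2 ratio of -0.35 and a spread of 0.24. HMGCS1 read 1015 and 865, a log2 ratio of -0.23, and its dimmer probe set 239 and 243, which shows no common direction. The kinases MVK and PMVK had log2 ratios of -0.01 and -0.17, and FDPS, which makes farnesyl pyrophosphate, read 7555 and 6828, a log2 ratio of -0.15. IDI1, the isomerase before FDPS, was the highest, with 5022 and 5045, a log2 ratio of 0.01. A dim IDI1 probe set, which read 135 and 70.2, gave -0.94 and thus stood apart from the 3 brighter ones, which lay between -0.09 and 0.05. Those 3 carry names that mark targets shared with other transcripts.

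From squalene to cholesterol, 4 of 8 measured genes were above 0 and 4 below, where 54.6% of all genes were below. All 8 were within 1.5-fold by their brightest probe sets, as were 10118 of all 12375 genes. SQLE, the epoxidase that commits squalene to sterols, read 3948 without TGF-β and 4115 with it, a log2 ratio of 0.06, and its 3 dimmer probe sets lay between -0.07 and 0.56. LSS, the cyclase that forms lanosterol, read 688 and 641. A further LSS probe set read 63.1 without TGF-β and was at background with it, a difference of at least 1.12-fold against the background level. NSDHL, a dehydrogenase that helps remove methyl groups from the ring, was the highest, with 1309 and 1525, a log2 ratio of 0.22 and a spread of 0.28. SC5D, a sterol desaturase, gave 0.22 as well, and HSD17B7 and the sterol reductase TM7SF2 gave 0.05 and -0.05. EBP, a sterol isomerase, read 3151 and 2810, a log2 ratio of -0.17. Its next probe set read 2884 and 2316, a log2 ratio of -0.32 with a spread of 0.26. The 2 dimmer EBP probe sets were higher, with 206 and 220, a log2 ratio of 0.09, and 58.1 and 108, a log2 ratio of 0.89.
DHCR7, the reductase of the last step to cholesterol, was the lowest of this group. It read 1067 and 771 by its brightest probe set and 564 and 364 by the other, log2 ratios of -0.47 and -0.63 with spreads of 0.31 at both brightnesses. Both DHCR7 probe sets were lower with TGF-β and neither reached 2-fold. Both carry names that mark targets shared with other transcripts. Over the 14 measured cholesterol synthesis genes, the log2 ratios ran from -0.47 to 0.22, with a median of -0.08. Of these 14, 9 were below 0, where 54.6% of all genes were.

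**Figure D3:**
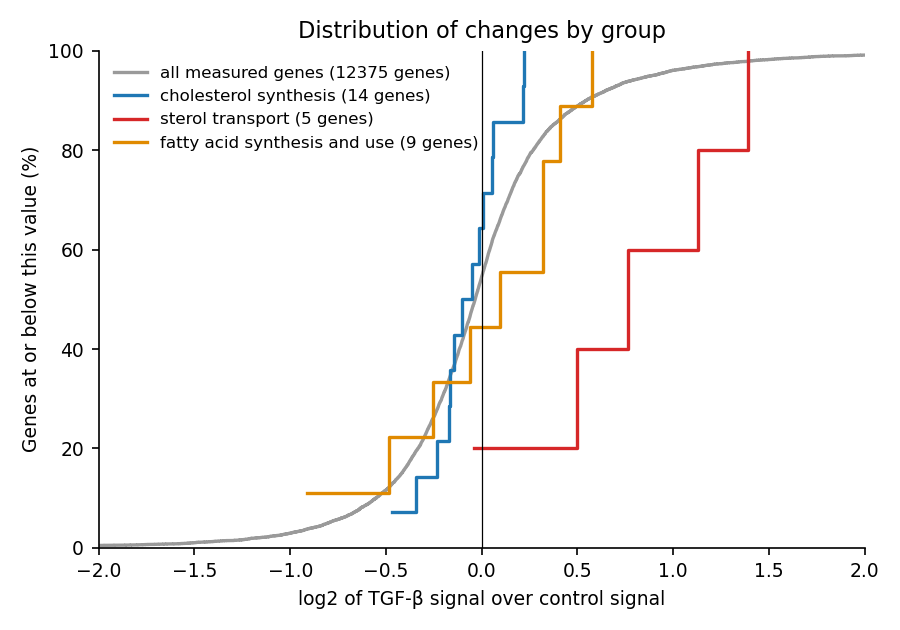
Cumulative share of genes (y axis, %) at or below each log2 ratio of TGF-β over control (x axis) for all 12375 genes, 14 cholesterol synthesis genes, 5 sterol transport genes and 9 fatty acid genes. The cholesterol synthesis genes span -0.47 to 0.22 around the middle of all genes, the fatty acid genes span -0.91 to 0.57, and 4 of 5 sterol transport genes lie above 0.

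The fatty acid genes differed in both directions. ELOVL6, which elongates palmitate to stearate, had control and TGF-β signals of 1116 and 593, 531 and 230, and 237 and 117 by its 3 probe sets. All 3 ELOVL6 probe sets were lower, with log2 ratios of -0.91, -1.21 and -1.02, and the spread at the brightness of the first was 0.27. By the brightest the signal was 1.88-fold lower, just under the 2-fold rule, and by the other two it was past 2-fold. ELOVL6 was the lowest of the 31 genes and stood at rank 466 from the lowest among all genes.
SCD, the desaturase that makes oleate from stearate, was the highest fatty acid gene. It read 10527 and 15670, a 1.49-fold difference with a log2 ratio of 0.57, where the spread was 0.15. The other 3 SCD probe sets read 1169 and 1555, 226 and 299, and 215 and 274, so all 4 were higher with TGF-β, by log2 ratios between 0.35 and 0.57. ACLY, which makes cytosolic acetyl-CoA from citrate, read 13418 and 16778, a log2 ratio of 0.32 with a spread of 0.14. Its other 2 probe sets gave 0.44 and 0.51, so every ACLY probe set was higher. All SCD and ACLY probe sets carry names that mark targets shared with other transcripts.

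The remaining enzymes of fatty acid synthesis were within 1.5-fold by their brightest probe sets. ACACA, the carboxylase that makes malonyl-CoA, read 1053 and 1316, a log2 ratio of 0.32, and 489 and 464 by its other probe set. FASN, the fatty acid synthase, read 495 and 416, a log2 ratio of -0.25 with a spread of 0.31. Its dim probe set read at background without TGF-β and 59.8 with it, at least 1.31-fold higher against the background level. ELOVL5, an elongase of polyunsaturated fatty acids, read 12478 and 13320, a log2 ratio of 0.09, and 1 of its 3 dimmer probe sets, with 132 and 61.1, gave -1.11 where the others gave 0.08 and 0.40. FADS2, a desaturase of the same route, read 645 and 618, a log2 ratio of -0.06, and 70.1 and 91.9 by a dim probe set, a log2 ratio of 0.39.
ACSL1, which activates fatty acids to acyl-CoA, read 813 and 1079, a log2 ratio of 0.41, and 0.36 by its second probe set. LPIN1, the phosphatase that makes diacylglycerol, read 971 and 694, a log2 ratio of -0.49 with a spread of 0.27, and -0.38 by its second bright probe set. Both genes thus had a pair of bright probe sets with like ratios, in opposite directions and under 2-fold.

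**Figure D4:**
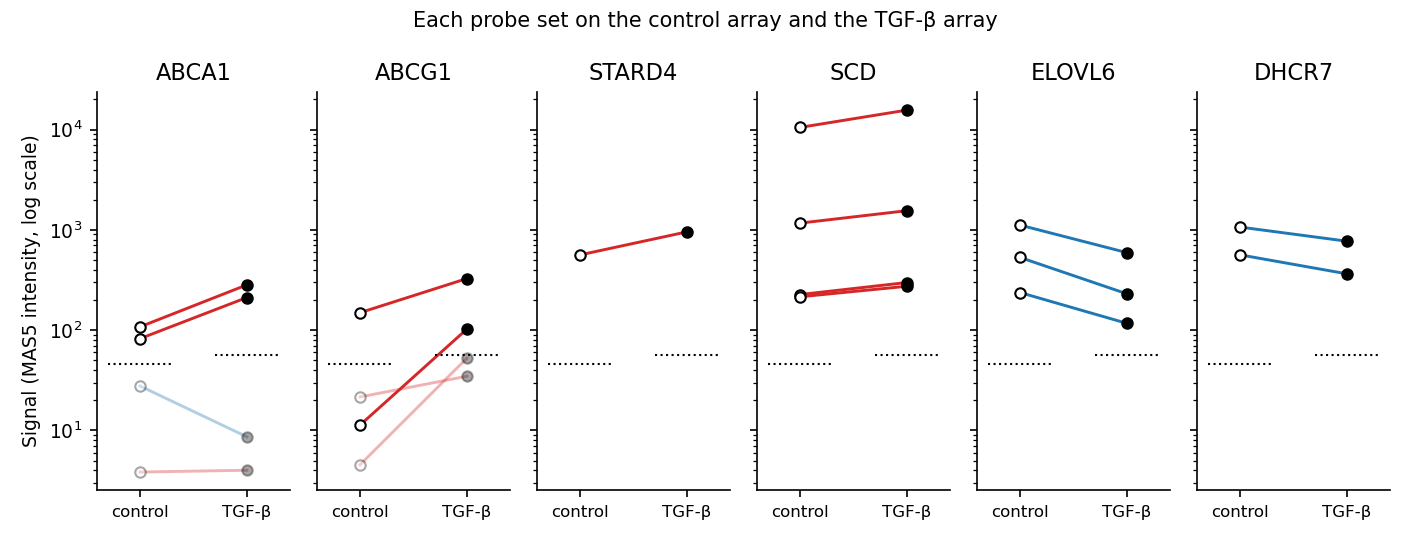
Every probe set of 6 lipid genes, with its control signal (open points) and TGF-β signal (filled points) as MAS5 intensity on a log scaled y axis. Each line is 1 probe set, red where higher and blue where lower with TGF-β, faint where both signals were at background, and dotted lines mark background at 45.8 and 56.6. The 4 SCD probe sets and the 2 ABCA1 probe sets above background slope up, and the 3 ELOVL6 and 2 DHCR7 probe sets slope down.

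Probe sets of a gene are repeated readings of the same RNA and not of separate cultures. The 32 genes had 77 probe sets, of which 62 were above background on both arrays, 4 on 1 array and 11 on neither. Of 18 genes with 2 or more probe sets above background on both arrays, all such probe sets moved the same way in 10, 5 higher and 5 lower, where 56.9% of 5610 genes on the array did so. Agreement in direction was thus near that of the array as a whole. The genes with 3 or more such probe sets and a single direction were SCD, ACLY and ELOVL6, 3 of 8, and over all genes the share was 44.9%.

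A further list of 28 genes of sterol and fatty acid metabolism outside the 36 was examined in the same way, and 24 were measured. Of these, 2 were at least 2-fold higher, where 3.94% of all genes were, and 0 at least 2-fold lower, where 2.96% were. A further 2, SREBF1 and SREBF2, were at least 1.5-fold lower, where 9.08% of all genes were, and the median log2 ratio was -0.10 beside -0.03 over all genes. GPAM, the acyltransferase that starts glycerolipid synthesis, read 792 without TGF-β and 1775 with it, a 2.24-fold rise, and its second probe set rose 2.45-fold. ACSL5, an acyl-CoA ligase related to ACSL1, read 98.5 and 219, a 2.22-fold rise, and its second probe set rose 2.64-fold. In both genes each probe set was past 2-fold.
The largest difference downward was that of SREBF2, the SREBP of cholesterol synthesis, which read 162 and 84.6, a log2 ratio of -0.94. Its other 2 probe sets gave -0.41 and -0.07, so the size depended on the probe set. SREBF1, the SREBP of fatty acid synthesis, read 709 and 457, a log2 ratio of -0.63, and 0.27 by a dim probe set with 65.6 and 79.1. MBTPS1 and MBTPS2, which encode S1P and S2P, gave 0.16 and -0.13 by their brightest probe sets. A dimmer MBTPS1 probe set gave -0.03. The next MBTPS2 probe set read 212 and 117, a log2 ratio of -0.86, so for MBTPS2 the size depended on the probe set. The dimmest MBTPS2 probe set read 48.1 and 51.8, at background with TGF-β. NR1H3, which encodes an LXR receptor, read 746 and 825, a log2 ratio of 0.15.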

How the data were processed

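A549 RNA was measured on 1 array per condition. The authors deposited intensities per probe set, made with MAS5 according to the submitters' processing notes (version not given in the sources used here). Their mean after trimming 2% at each end was 500 on both arrays, so the arrays shared a scaling target. Signals were used as deposited, with Python 3.11.15, numpy 2.4.6, pandas 2.3.3, statsmodels 0.14.6 and matplotlib 3.10.9. The 54613 probe sets other than controls comprised 41091 with 1 symbol, 1801 with several and 11721 unlisted, and symbols were updated through RefSeq gene identifiers (GRCh38.p14). A fold is TGF-β over control for rises and the inverse for falls; where 1 signal was at background, the background level took its place. The spread is 1.4826 times the median absolute deviation of log2 ratios over 500 kept probe sets of closest brightness. Fold changes and calls were tested on simulated data with less noise than these arrays and with planted changes larger than 2-fold. That test covers the calculation and not the reliability of calls near 2-fold. No p-value or interval was computed. The members, the further list, motifs and markers were chosen with earlier results of these data known. All 36 genes could be named; the further genes were named when past 2-fold or with the largest change, and SREBF1, MBTPS1, MBTPS2 and NR1H3 were named after their values were seen. The alternatives covered filters, floors, an offset of 50, 3 scalings and the choice of probe set.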

Additional observations from a re-analysis of the deposited data

How the results depend on the processing

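Under 11 alternatives, the genes at least 2-fold higher were ABCA1 and ABCG1 wherever their count was 2. The count at least 2-fold higher was 0 with a mean signal of at least 349 required, where neither gene was kept and 28 were measured, 1 (ABCA1) with an offset of 50, and 1 (ABCA1) without shared-target probe sets, where ABCG1 had no kept probe set and 21 genes were measured. The count at least 2-fold lower, 0 otherwise, was 1 (ELOVL6) with the median over probe sets and 2 (ELOVL6 and ELOVL5) by the most changed probe set. The median log2 ratio of the fatty acid genes, 0.09, was 0.32 by the most changed probe set and 0.21 without shared-target probe sets, which left fewer genes; the cause was not tested. Of 328 values of single genes under the alternatives, 315 lay within the spread of the reported value and 13, in 10 genes, did not. Many of the 315 could not differ, because the filters and floors left the value of every kept lipid gene unchanged. Nor could a gene with 1 kept probe set move with the choice of probe set. By the most changed probe set some genes changed sign, such as EBP (-0.17 to 0.89) and ELOVL5 (0.09 to -1.11). The log2 ratio of ABCA1 ran from 1.08 to 1.44 and that of ELOVL6 from -1.21 to -0.86. That of ABCG1 was 0.92 with the offset, and its most changed probe set, with a control signal at background, gives only a bound of at least 2.24-fold. Signal over background limits ABCG1 there. No paired analysis was possible because each condition had 1 array.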
